A study of Homo sapiens with 9 samples.

Results

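The proteins of the cytosolic ribosome were followed in a human colorectal carcinoma cell line and in 2 lines derived from it. Their genes were taken by symbol: every probe set annotated to exactly 1 symbol of the RPL or RPS series (a number, with an A, L or X after it where present), or to RPLP0, RPLP1, RPLP2 or RPSA, without RPS6K genes, RPS27L, pseudogenes and Y-linked copies. The rule found 114 of 54675 probe sets, for 55 of 19775 genes, of which 35 encode proteins of the large subunit and 20 of the small subunit. Another 64 probe sets pair a ribosomal protein symbol with the symbol of a second gene, and RPLP0, RPSA, RPL5, RPL23 and RPS20 are among the genes not analysed here. SCP51, a line grown from a single cell and labelled with a high metastatic potential, was compared with SCP58, a single-cell line labelled low, and both were compared with their parent, SW480/EGFP, which is the SW480 line carrying the green fluorescent protein EGFP. All cells were grown in the same medium, and metastatic potential was measured separately after implantation into mice. Each group had 3 arrays named as biological replicates, and each metastatic class was 1 line.

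A ribosome joins ribosomal RNA, made by RNA polymerase I, with the ribosomal proteins, which decode the mRNA on the small subunit and form the surroundings of the peptide-bond centre on the large subunit. Their mRNAs are among the most abundant of a growing cell. Most of them begin at a C followed by an unbroken run of pyrimidines, the 5′ terminal oligopyrimidine (TOP) tract, through which MTOR and the RNA-binding protein LARP1 control their translation together. Translational control of this kind need not alter mRNA levels, which are what the arrays measured.

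In RefSeq (GRCh38.p14), 47 of the 55 genes had a start-site entry. A C at an annotated start followed by at least 4 bases that were C or T stood at 34 of these 47 genes (72.3%), against 5.14% of the 27305 genes with an entry. The runs found were 5 to 19 bases long, with a median of 8. Shown are the starts of genes whose values are described below, in 30 bases with 15 on each side of the boundary before the annotated start, where capitals mark the run.
RPL12: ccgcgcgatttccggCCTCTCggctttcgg
RPL27A: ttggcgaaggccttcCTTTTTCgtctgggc
RPL36: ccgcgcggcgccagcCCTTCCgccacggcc
RPLP2: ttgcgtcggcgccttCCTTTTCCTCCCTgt
RPS21: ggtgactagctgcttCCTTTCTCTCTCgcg
RPS23: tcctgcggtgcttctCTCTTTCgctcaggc
RPS24: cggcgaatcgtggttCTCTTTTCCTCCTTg
RPL10L: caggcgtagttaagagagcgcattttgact
RPL6: ggggagacggcgcgtgcactgtgttcctgg
These lie at chr9:127451392-127451421 (minus strand) for RPL12, chr11:8682777-8682806 (plus) for RPL27A, chr19:5690280-5690309 (plus) for RPL36, chr11:809952-809981 (plus) for RPLP2, chr20:62387088-62387117 (plus) for RPS21, chr5:82278340-82278369 (minus) for RPS23 and chr10:78033848-78033877 (plus) for RPS24. RPL10L, a testis paralogue of RPL10, at chr14:46651767-46651796 (minus), and RPL6, at chr12:112409271-112409300 (minus), have no such run at the starts shown. Probe sets were joined to these starts by symbol alone.

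The motif CCGGAA, the core bound by ETS-family factors, was found on either strand between 250 bases before and 50 after the start in 27 of the 47 genes (57.4%), against 20.1% of all genes with an entry. AAGATGGC, part of the element bound by YY1, was in 4 of 47 (8.51%), against 3.52%. RPL12, whose second probe set passed against the parent with all 9 arrays (given below), carries the ETS core on the opposite strand directly before its start. Its 100 upstream bases at chr9:127451407-127451506 (minus strand) are shown with that match in capitals.
RPL12 upstream: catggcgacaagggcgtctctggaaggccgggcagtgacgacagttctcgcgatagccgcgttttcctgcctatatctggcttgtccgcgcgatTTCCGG
A match to these letters is a description of the sequence and says nothing about binding in these cells.

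One array, SCP51 replicate 1, stood apart from the other 8 over all genes. Its correlations with them across the genes tested were 0.891 to 0.911, against 0.945 to 0.979 for the 28 pairs among the others, and its 75th-percentile signal was 112.5, against 123 to 131. Hybridisation controls were lower on it in part. The newer spike-in probe set for cre gave a log2 signal of 12.49 at its 3′ end, against 13.01 to 13.27. The older one gave 12.52, against 12.43 to 12.82. For bioD at its 5′ end the newer set was lower, at 10.41 against 11.20 to 11.63. The older bioD set was higher there, at 10.14 against 9.35 to 10.04. The 3′ minus 5′ difference was -0.39 for GAPDH, against -0.16 to -0.06, and 0.12 for ACTB, against -0.09 to 0.21. Of 12 colorectal epithelial markers 10 passed the filter, and KRT20 and LGR5 did not. EPCAM, KRT8, KRT18 and KRT19 lay above 11 on every array and CDH1 at 8.84 to 9.78. Lower values were seen for VIL1 (6.74 to 7.02), CDX1 (6.32 to 6.73), CDX2 (5.51 to 5.86), GPA33 (5.18 to 5.81) and CDH17 (3.63 to 5.66). PTPRC, CD14 and LYZ of leukocytes and COL3A1, LUM and PDGFRB of fibroblasts did not pass. Of the markers of other cells COL1A1 (6.98 to 7.42), DCN and CD3E (6.17 to 6.50) passed, and their ranges cover all 3 lines. That array touches every comparison with SCP51, so the main results are given with it and without it.

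Of the 55 genes, 52 passed the filter, which asked for a signal above the array median on at least 3 arrays, and each was represented by its probe set with the highest mean. In 49 of the 52 that probe set averaged 11.63 to 13.26 log2 units, against array maxima of 13.45 to 13.59, and saturation was not tested. The other 3 were RPL27A, RPLP2 and RPL10L. The 3 genes that did not pass were RPL36A, at 4.90 to 5.43, and the tissue-restricted paralogues RPL39L and RPL3L, between 3.81 and 4.86. Within a line most members varied little outside SCP51 replicate 1, with RPLP2 in SW480/EGFP (given below) as an exception. The median SD over the 52 genes was 0.28 log2 units in SCP51, or 0.05 without that array, against 0.03 in SCP58 and 0.03 in SW480/EGFP. Over all 13598 genes tested the median SD was 0.21 in SCP51, or 0.13 without that array, 0.17 in SCP58 and 0.13 in SW480/EGFP.

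**Figure D1:**
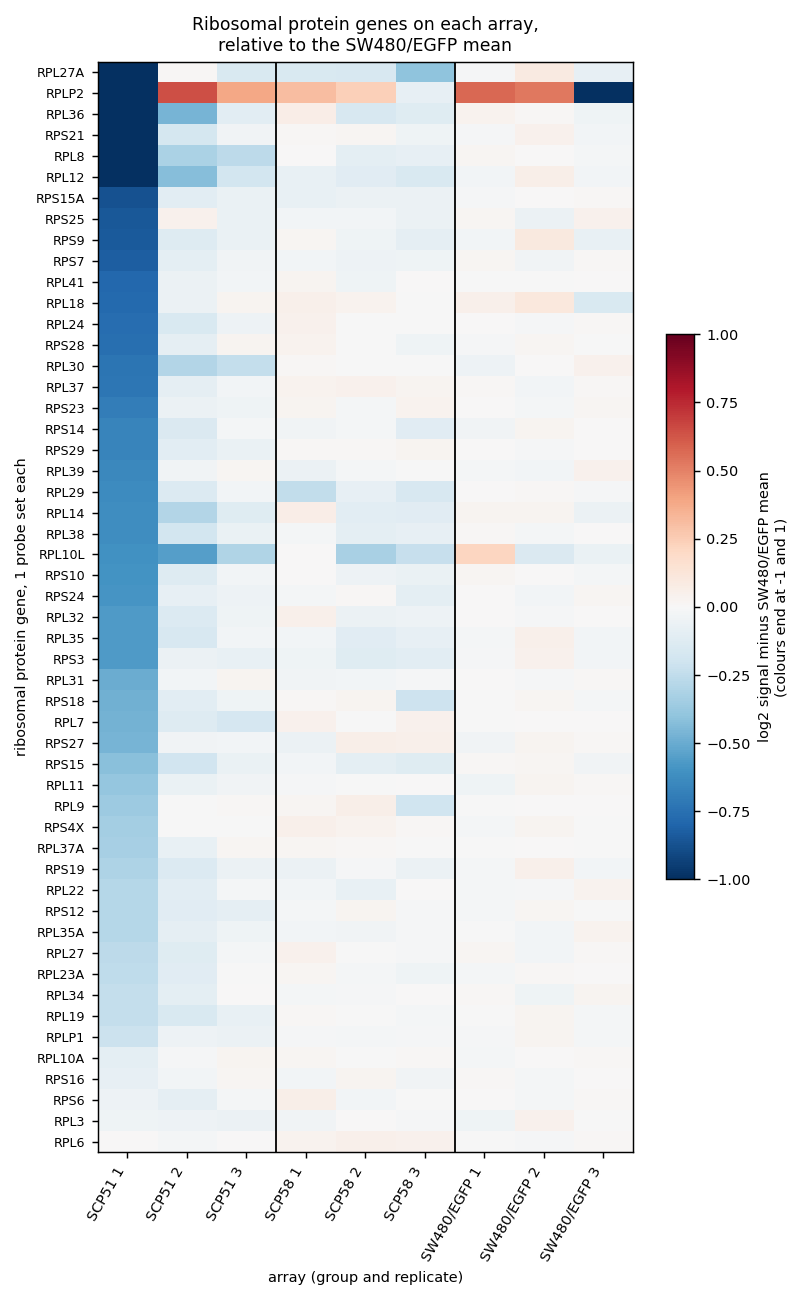
Log2 signal of each of the 52 tested ribosomal protein genes (rows, 1 probe set each) on each of the 9 arrays (columns) minus the gene's SW480/EGFP mean, with colours that end at -1 and 1. SCP51 replicate 1 is the blue column, and on it 49 of 52 genes lie below all 8 other arrays. The same count over all genes was not made.

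On SCP51 replicate 1 the members were low as a group. Relative to the mean of the other SCP51 arrays they had a median of -0.47, with 50 of 52 below 0, 22 below -0.5 and 4 below -1. Over all 13598 genes tested the median was -0.12, with 8537 below 0, 3224 below -0.5 and 1518 below -1. The share below -1 was thus not larger in the members. RPL27A, a large-subunit protein, had 6.54 log2 units on that array, against 9.81 to 10.31 on the other 8. RPLP2, one of the acidic proteins of the stalk that recruits elongation factors, had 5.16, against 6.88 to 8.62. RPL36 had 10.14, against 11.45 to 11.98, and RPS21 of the small subunit had 11.47, against 12.69 to 12.90. In all 4 genes that array lay below every other one by a gap larger than the whole range of the other 8 arrays, except in RPLP2, whose lowest other value was SW480/EGFP replicate 3. RPL3, which reaches toward the peptide-bond centre, RPL6 and RPS6, the substrate of the S6 kinases, did not lie below the other arrays. RPL3 had 12.53 there, against 12.52 to 12.62, RPL6 had 12.63, against 12.62 to 12.68, and RPS6 had 12.91, against 12.88 to 13.02. The part of the lower control signals in the low values of the members was not tested.

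SCP51 was set against SCP58 to find what separates the line labelled high from the line labelled low. With all 9 arrays no ribosomal protein gene passed the test (limma, Benjamini-Hochberg adjusted p under 0.05 over all genes), where 555 genes, or 4.08% of those tested, did so in either direction, 201 of them higher and 354 lower (319 and 302 after quantile normalization). All 52 log2 differences were below 0, as were 65% of all genes, and the median was -0.20, against -0.11 for all genes. In 19 genes every SCP51 array lay below every SCP58 array, against 17.2% of all genes, and 8 had an unadjusted p under 0.05 in limma, where 21.3% of all genes did. Without SCP51 replicate 1 the median was -0.04, against -0.05 for all genes, with 43 of 52 below 0 (57.4% of all genes), and 3 genes passed, all lower in SCP51, against 4.85% of all genes called lower. These 3 were RPL30, RPL7 and RPL8, which are the 3 members on chromosome 8. The lowest differences with all arrays were -1.03 ± 0.83 for RPL27A, -0.75 ± 0.86 for RPLP2 and -0.71 ± 0.35 for RPL36, and without SCP51 replicate 1 these were 0.17 for RPL27A, 0.36 for RPLP2 and -0.21 for RPL36. RPS16 (-0.02), RPL10A (-0.04) and RPL3 (-0.04) lay nearest to 0.

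RPL30, a large-subunit protein that also binds the selenocysteine insertion element of selenoprotein mRNAs, had 12.16, 12.59 and 12.65 log2 units in SCP51, 12.90, 12.88 and 12.88 in SCP58, and 12.84, 12.89 and 12.93 in SW480/EGFP. The 3 SCP51 arrays lay below all 6 others. Against SCP58 it lay at -0.42 ± 0.11 (SE, 3 arrays in each line; adjusted p = 0.0796 in limma) with all arrays and -0.27 ± 0.04 (adjusted p = 0.00724) without SCP51 replicate 1. Over 20 alternative settings it was called in 6, with adjusted p from 0.00615 to 0.208.

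RPL8, which lies beside the peptide-bond centre, had 11.61, 12.54 and 12.59 in SCP51, 12.86, 12.76 and 12.77 in SCP58, and 12.88, 12.86 and 12.84 in SW480/EGFP. SCP51 again did not overlap with either line, but its first array set most of the mean difference. This was -0.55 ± 0.22 against SCP58 (limma adjusted p = 0.202), or -0.23 ± 0.04 (adjusted p = 0.0172) without that array. It was called in 2 of 20 settings, with adjusted p from 0.0114 to 0.360.

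RPL7, also of the large subunit, had 12.58, 12.93 and 12.89 in SCP51, 13.11, 13.05 and 13.11 in SCP58, and 13.06 on each of the SW480/EGFP arrays. All SCP51 values lay below all others. The difference from SCP58 was -0.29 ± 0.08 (limma adjusted p = 0.0887), or -0.18 ± 0.03 (adjusted p = 0.0156) without SCP51 replicate 1, and it was called in 4 of 20 settings, with adjusted p from 0.0114 to 0.420. A second bright RPL7 probe set, on which SCP51 replicate 1 was not low, had 12.68, 12.73 and 12.62 in SCP51, 12.89, 12.87 and 12.88 in SCP58, and 12.86, 12.85 and 12.82 in SW480/EGFP. In the fit of every probe set it was lower in SCP51 than in SCP58 with all 9 arrays, at -0.20 ± 0.04 (limma adjusted p = 0.0355, or 0.0251 without SCP51 replicate 1), and was called in 5 of 19 settings (0.00751 to 0.295). Both RPL7 sets and both RPL12 sets below are of the kind named _x_at, whose probes can match other transcripts, and ribosomal protein genes have many processed pseudogenes, so signal from copies cannot be told apart from that of the gene.

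Other genes of chromosome 8 were lower as well. Among the other 470 chromosome 8 genes tested, 74 were called lower in SCP51 than in SCP58 (15.74%), against 2.14% of 13058 genes of other chromosomes, and their median was -0.26, against -0.10. Against the parent 59 of the 470 were called lower (12.55%), against 1.19%, with medians of -0.26 and -0.09. With SCP51 replicate 1 left out the shares called lower were 22.03%, against 4.23%, in SCP51 against SCP58 and 15.33%, against 2.40%, in SCP51 against the parent. Between SCP58 and the parent none of the 470 passed in limma with all 9 arrays, and their median was 0.004. Members on other chromosomes had a median of -0.04 against SCP58 without SCP51 replicate 1, against -0.23 for the 3 on chromosome 8. The part of this chromosome-wide difference in the values of RPL30, RPL7 and RPL8 was not tested.

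**Figure D2:**
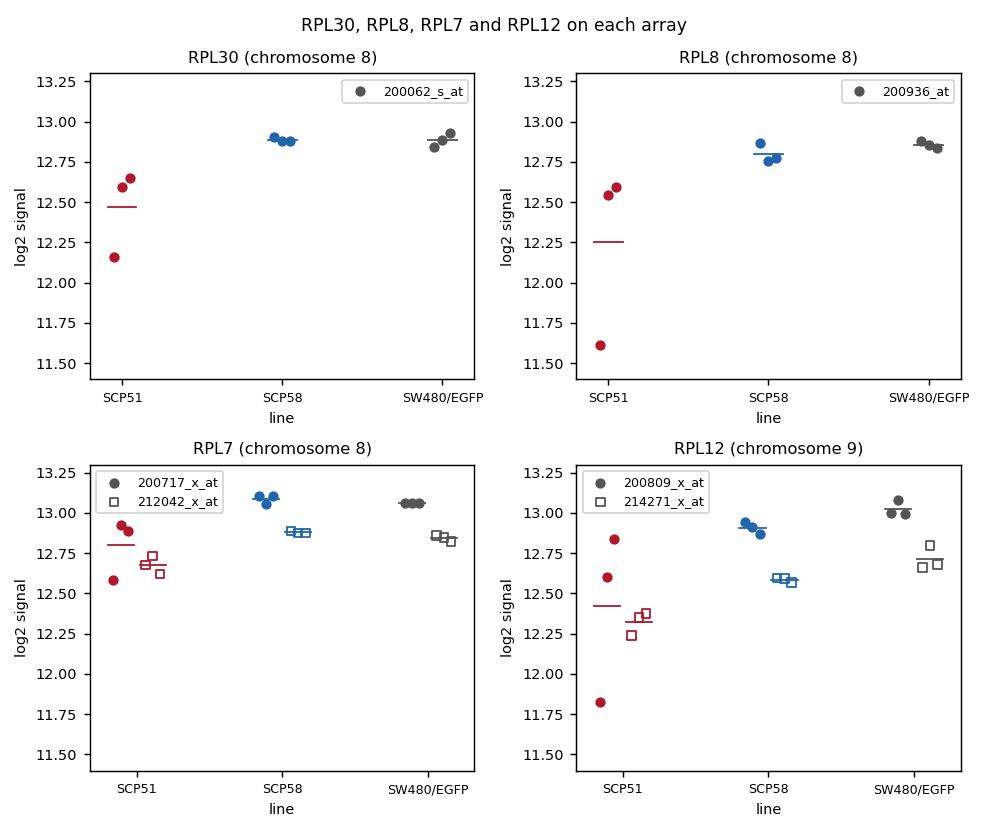
Log2 signal of RPL30, RPL8, RPL7 and RPL12 (1 point for each array, short lines for group means) in SCP51, SCP58 and SW480/EGFP, with open squares for the second bright probe set of RPL7 and RPL12. SCP51 lies below both other lines in every probe set shown, with its first array lowest in the 4 filled sets.

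SCP51 was next set against the population it came from. With all 9 arrays again no ribosomal protein gene passed (limma), where 402 genes, or 2.96% of those tested, did, 187 of them higher and 215 lower (246 and 169 after quantile normalization). All 52 differences were below 0, as were 64% of all genes, with a median of -0.25, against -0.10 for all genes. In 30 of the 52 SCP51 lay wholly below SW480/EGFP, against 18.6% of all genes, and 11 had an unadjusted p under 0.05, where 19.6% of all genes did. Without SCP51 replicate 1 the median was -0.07, against -0.05 for all genes, with 48 of 52 below 0 (56.3% of all genes), and 4 genes were called lower, against 2.87% of all genes. They were RPL8, at -0.29 ± 0.04 (limma adjusted p = 0.00874), RPL30, at -0.26 ± 0.04 (0.00883), RPL12, at -0.30 ± 0.07 (0.0338), and RPL7, at -0.15 ± 0.03 (0.0390). With all arrays their adjusted p in limma were 0.189, 0.0991, 0.180 and 0.138, and over 20 settings these ran from 0.00605 to 0.368, 0.00883 to 0.275, 0.0338 to 0.359 and 0.0362 to 0.329. Both comparisons use the same SCP51 arrays.

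RPL12, which forms the base of the stalk, is encoded on chromosome 9, and its start is among those printed above. Its brightest probe set had 11.83, 12.60 and 12.84 in SCP51, 12.95, 12.91 and 12.87 in SCP58, and 13.00, 13.08 and 12.99 in SW480/EGFP. Its second set had 12.24, 12.35 and 12.38 in SCP51, 12.60, 12.59 and 12.57 in SCP58, and 12.66, 12.80 and 12.68 in SW480/EGFP. On both sets the 3 lines did not overlap, in the order SCP51, SCP58, SW480/EGFP from low to high. With all 9 arrays the second set was lower in SCP51 than in SW480/EGFP, at -0.39 ± 0.06 (limma adjusted p = 0.0118, or 0.00821 without SCP51 replicate 1; called in 14 of 19 settings, 0.00246 to 0.0895), the single ribosomal protein probe set to pass there, where 1.89% of all probe sets passed. It was also lower than in SCP58, at -0.26 ± 0.06 (limma adjusted p = 0.0411, or 0.0321 without that array; called in 6 of 19 settings, 0.0124 to 0.183). SCP58 and the parent differed by -0.13 ± 0.06 on it (adjusted p = 0.584).

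Between SCP58 and SW480/EGFP the 52 genes differed least. None passed in limma, where 19 genes, or 0.14% of those tested, did. None had an unadjusted p under 0.05, where 8.6% of all genes did. Of the 52 differences 15 were above 0 and 37 below, with a median of -0.02, against -0.0004 and 50.1% below 0 for all genes. The groups did not overlap in 3 genes higher in SCP58 (RPL6, RPL37 and RPS29), against 9.41% of all genes, and in 6 lower (RPS15A, RPL12, RPL38, RPS3, RPL27A and RPL29), against 7.58%. The lowest differences were -0.24 ± 0.83 for RPL27A, -0.18 ± 0.15 for RPL10L and -0.16 ± 0.14 for RPL29, and the highest was 0.16 ± 0.86 for RPLP2. Each is about the size of its standard error or smaller, but these errors pool the spread of all 9 arrays, SCP51 replicate 1 included. RPL27A had SDs of 0.14 in SCP58 and 0.09 in SW480/EGFP. Without SCP51 replicate 1 again none of the 52 passed in limma, where 75 of 13428 genes did. In that fit 2 members, both lower in SCP58, had an unadjusted p under 0.05 in limma, where 12.8% of all genes did.

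**Figure D3:**
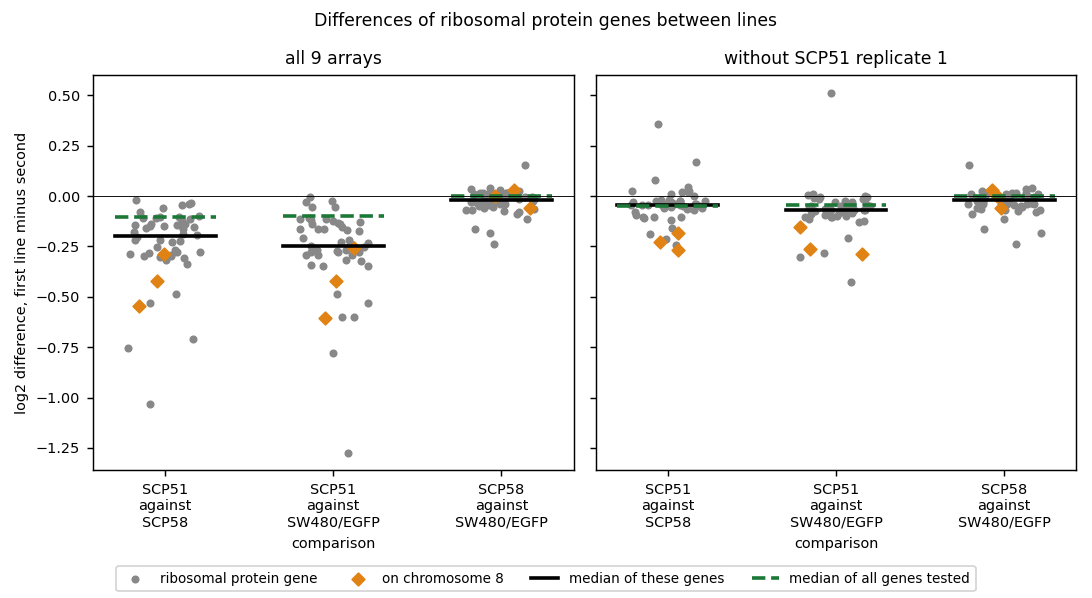
Log2 differences of the 52 ribosomal protein genes (grey points; orange diamonds for the 3 on chromosome 8) in the 3 comparisons, with all 9 arrays on the left and without SCP51 replicate 1 on the right; black lines are their medians and green dashed lines the medians of all genes tested. The medians against SCP58 and against SW480/EGFP lie at -0.20 and -0.25 with all arrays and at -0.04 and -0.07 without that array.

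Members known for particular roles lay with the rest, and on its brightest probe set none of those named here passed in limma. Another probe set of RPS24 passed and is given below. In the stalk, RPLP1 had 12.88, 13.05 and 13.04 in SCP51, 13.09, 13.08 and 13.09 in SCP58, and 13.09, 13.13 and 13.08 in SW480/EGFP, a difference of -0.10 ± 0.05 from SCP58 and -0.11 ± 0.05 from the parent, or -0.04 and -0.06 without SCP51 replicate 1. RPL11, which binds MDM2 when ribosome assembly fails, had 12.39, 12.71 and 12.74 in SCP51, 12.76, 12.78 and 12.78 in SCP58, and 12.74, 12.81 and 12.79 in SW480/EGFP. Against SCP58 it lay at -0.16 ± 0.09, or -0.05 without the first SCP51 array. RPS19, RPS24, RPL35A, RPS10, RPS7 and RPL11 are among the genes mutated in Diamond-Blackfan anaemia, an inherited failure of red cell production. The differences of these 6 from SCP58 ran from -0.28 ± 0.18 for RPS7 to -0.11 ± 0.07 for RPL35A, and RPS19 lay at -0.12 ± 0.06. When SCP51 replicate 1 was left out the 6 lay between -0.06 (RPS19) and -0.03 (RPS7) on these probe sets. A second bright set of RPS7 had 11.45, 11.81 and 12.56 in SCP51, 12.59 to 12.65 in SCP58 and 12.63 to 12.69 in SW480/EGFP. Without SCP51 replicate 1 it still lay at -0.43 against SCP58, the lowest of the tested member probe sets. RPS3, at the entry of the mRNA channel, lay at -0.14 ± 0.12, RPL38, needed in mice for translation of Hox mRNAs, at -0.22 ± 0.12, RPL22 at -0.11 ± 0.07 and RPS6 at -0.06 ± 0.04. Without that array these were 0.02 for RPS3, -0.06 for RPL38, -0.03 for RPL22 and -0.06 for RPS6. Both subunits lay alike: the median difference from SCP58 was -0.19 over 32 large-subunit genes and -0.21 over 20 small-subunit genes, or -0.04 and -0.04 without SCP51 replicate 1.

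Members with several probe sets gave a second pattern, which the brightest probe set alone does not show. Of the 102 tested probe sets 71 averaged over 11 log2 units, 5 between 9 and 11, and 26 at 9 or less. Over all 114 member probe sets, tested or not, 22 genes had a set over 11 together with a set at 9 or less. In SCP51 against SCP58, 69 of the 71 bright sets were below 0 (median -0.19), while 19 of the 26 dim sets were above 0 (median 0.17), where 60.5% of all probe sets were below 0. In 8 dim sets SCP51 lay wholly above SCP58, against 8.94% of all probe sets. Without SCP51 replicate 1 these were 61 of 71 below 0 (-0.05) and 23 of 26 above 0 (0.34), with 53.1% of all probe sets below 0. In SCP58 against SW480/EGFP the dim sets were below 0 in 23 of 26, with a median of -0.30, against 52 of 71 and -0.02 for the bright sets. Over all 29166 probe sets 52.1% were below 0 there. In 12 of the 26 dim sets SCP58 lay wholly below the parent, against 8.26% of all probe sets, and none passed in limma, where 0.134% of all probe sets did. The filter did not ask for signal in every line, so a dim set could pass through the lines where it was higher. These shares over all probe sets were not matched for brightness. Of the 102 member sets 10 had an unadjusted p under 0.05, where 8.5% of all probe sets did.

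With all 9 arrays, 5 ribosomal protein probe sets passed in SCP51 against SCP58 (3.35% of all probe sets did): the RPL7 and RPL12 sets given above, lower in SCP51, and dim sets of RPS24, RPL37 and RPS15A, higher in SCP51. The dim set of RPS24 had 8.45, 9.11 and 8.62 in SCP51, 7.44, 7.22 and 7.64 in SCP58, and 8.20, 7.55 and 8.30 in SW480/EGFP. It was 2.46-fold higher in SCP51 than in SCP58, at 1.30 ± 0.25 (limma adjusted p = 0.0313, or 0.0158 without SCP51 replicate 1; called in 10 of 19 settings, 0.00605 to 0.132). SCP51 lay above both other lines, which overlapped.

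The dim set of RPS15A had 7.29, 7.86 and 7.82 in SCP51, 6.80, 6.10 and 6.72 in SCP58, and 7.92, 7.63 and 7.88 in SW480/EGFP. SCP58 stood alone as the low line, and SCP51 and the parent overlapped. The set was 2.17-fold higher in SCP51 than in SCP58, at 1.12 ± 0.23 (limma adjusted p = 0.0388, or 0.0125 without SCP51 replicate 1; called in 8 of 19 settings, 0.00325 to 0.130). Against the parent SCP58 lay at -1.27 ± 0.23 (adjusted p = 0.113, or 0.0434 without SCP51 replicate 1, where 0.342% of all probe sets passed; called in 3 of 19 settings, 0.00206 to 0.574). A second dim set of RPS15A had 5.05, 5.96 and 5.97 in SCP51, 5.24, 5.33 and 5.45 in SCP58, and 5.91, 5.76 and 5.49 in SW480/EGFP. On it SCP58 overlapped with SCP51 and lay below the parent, and it did not pass with all 9 arrays.

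RPL37, a zinc-binding protein of the large subunit, had 3 dim sets, of which 2 had SCP58 as the low line. The first had 8.42, 8.50 and 8.46 in SCP51, 7.56, 7.92 and 7.91 in SCP58, and 8.37, 8.39 and 8.47 in SW480/EGFP. The second had 7.995, 8.31 and 8.45 in SCP51, 7.64, 7.65 and 7.67 in SCP58, and 8.24, 8.22 and 8.41 in SW480/EGFP. On both sets SCP58 lay below all arrays of the other lines, which overlapped. On the third, with 5.51, 7.02 and 6.43 in SCP51, 5.07, 6.12 and 6.31 in SCP58, and 6.73, 6.35 and 6.09 in SW480/EGFP, all 3 lines overlapped, and it did not pass. The first set differed between SCP51 and SCP58 by 0.66 ± 0.13 (limma adjusted p = 0.0380, or 0.0322 without SCP51 replicate 1; called in 8 of 19 settings, 0.0128 to 0.129) and the second by 0.60 ± 0.14 (adjusted p = 0.0634, or 0.0151 without it; called in 6 of 19, 0.00705 to 0.195). Between SCP58 and the parent they lay at -0.61 ± 0.13 and -0.63 ± 0.14 (adjusted p = 0.204 and 0.227, each called in 1 of 19 settings). RPS23 of the decoding centre had a dim set with 7.16, 7.55 and 7.36 in SCP51, 6.23, 6.95 and 6.97 in SCP58, and 7.49, 7.53 and 7.30 in SW480/EGFP, which did not pass.

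The bright probe sets of these genes differed little between SCP58 and the parent. That of RPL37 lay between 12.90 and 12.92 in SCP58 and between 12.85 and 12.89 in SW480/EGFP, and that of RPS24 between 12.81 and 12.92 and between 12.88 and 12.93. For RPS15A the bright set was 12.90 to 12.91 in SCP58 and 12.96 to 12.98 in the parent. Where in the transcripts the dim sets lie was not examined here.

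**Figure D4:**
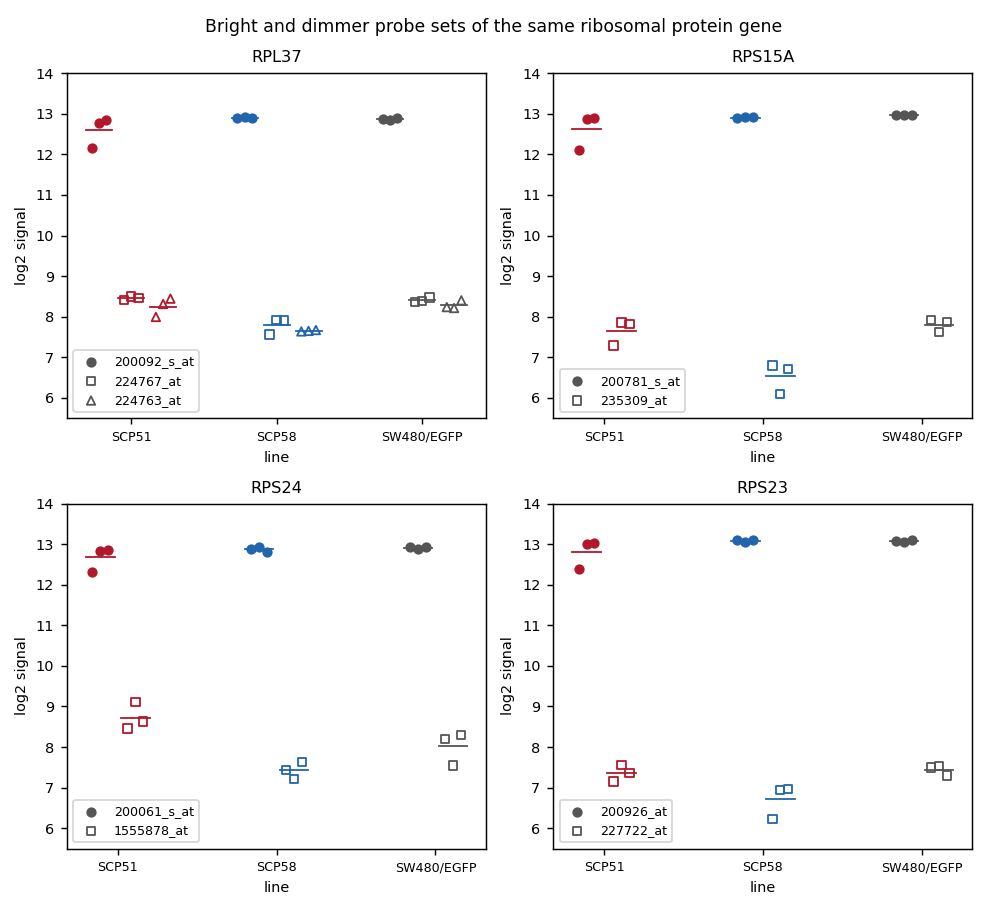
Log2 signal by line for the bright probe set (filled circles) and the dimmer probe sets (open symbols) of RPL37, RPS15A, RPS24 and RPS23, 1 point for each array and short lines for group means. By their means the dim sets shown are lower in SCP58 than in both other lines, while the bright sets of SCP58 and SW480/EGFP lie within 0.1 of each other by their means.

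Close relatives of the members and other genes of the translation machinery were examined as lists. Of the paralogues and fusion genes outside the rule 8 of 9 were tested and none passed in limma in any comparison. FAU, whose product is cut into a ubiquitin-like protein and a small-subunit protein, had 11.47, 12.30 and 12.48 in SCP51, 12.65, 12.59 and 12.52 in SCP58, and 12.53, 12.61 and 12.58 in SW480/EGFP. RPL26L1 had 7.76 on SCP51 replicate 1, against 9.99 to 10.61 on the other arrays. Their first SCP51 array was low, as in most members. Among 17 other mRNAs with a TOP tract that were tested, of 21 listed, the elongation factor subunit EEF1D, on chromosome 8, was lower in SCP51 than in SCP58, at -0.38 ± 0.08 (limma adjusted p = 0.0435), and than in the parent, at -0.40 ± 0.08 (0.0420). No other of the 17 passed with all 9 arrays, where 2.6% and 1.58% of all genes were called lower against SCP58 and the parent. With SCP51 replicate 1 left out EEF1D lay at -0.40 (0.0148) and -0.39 (0.0207). In that fit the initiation factor subunit EIF3H, also on chromosome 8, was called lower in both, at -0.34 (limma adjusted p = 0.0129) and -0.30 (0.0277). There 4.85% and 2.87% of all genes were called lower. VIM was called higher than in the parent, at 0.95 (0.0278), as were 339 of 13428 genes. EEF1D was called in 5 of 20 settings in each, with adjusted p from 0.00726 to 0.173 and from 0.0121 to 0.152, and its probe set was not the same in all of them. EEF1A1, the elongation factor that brings aminoacyl-tRNA, had 13.52, 13.59 and 13.52 in SCP51, 13.45, 13.52 and 13.57 in SCP58, and 13.50, 13.58 and 13.50 in SW480/EGFP, so SCP51 replicate 1 was not low for it. None of 22 further initiation and elongation factors tested, a list without EEF1D, EIF3H and EEF1A1, passed in limma in any comparison.

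Genes that build ribosomes were taken next. Of 28 ribosome biogenesis genes tested, 27 were below 0 in SCP58 against SW480/EGFP, with a median of -0.14, against -0.0004 for all genes, and none passed in limma. In SCP51 against SCP58 the small-subunit assembly factor LTV1 was higher, at 0.63 ± 0.13 (limma adjusted p = 0.0399; called in 9 of 20 settings, 0.00617 to 0.148), and 17 of 28 were above 0. Without SCP51 replicate 1, 23 of 28 were above 0, with a median of 0.27, 6 were called higher, where 4.01% of all genes were, and 1 lower. The lower one was the rRNA methyltransferase FBL, at -0.33 ± 0.08 (limma adjusted p = 0.0390; called in 2 of 20 settings, 0.0234 to 0.240). Of the 15 genes of the RNA polymerase I machinery, UBTF, which holds ribosomal DNA in an active state, was higher in SCP51 than in SCP58, with 9.25, 9.70 and 9.63 against 8.97, 8.90 and 8.86. Its difference was 0.61 ± 0.14 (limma adjusted p = 0.0498; called in 8 of 20 settings, 0.00512 to 0.178), and without that array 4 of the 15 passed, all higher, with a list median of 0.33.

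Of 74 mitochondrial ribosomal protein genes, which make a separate ribosome, 58 were below 0 in SCP51 against SCP58 (median -0.24), where 65% of all genes were, and 3 were called lower, where 2.6% of all genes were. Without SCP51 replicate 1, 48 were below 0, where 57.4% of all genes were, with a median of -0.13, against -0.05 for all genes. In that fit 3 were called lower, where 4.85% of all genes were. With all 9 arrays MRPL13 lay at -0.94 ± 0.16 (limma adjusted p = 0.0196), MRPS28 at -0.75 ± 0.11 (0.0118) and MRPL47 at -0.63 ± 0.14 (0.0476). Over 20 settings they were called in 15, 18 and 8, with adjusted p up to 0.0742, 0.0704 and 0.668. The first 2 are on chromosome 8 and were also lower than in the parent, at -0.93 ± 0.16 (0.0192) and -0.91 ± 0.11 (0.00585), where 1.58% of all genes were called lower. MRPS28 had 9.39, 9.33 and 9.64 in SCP51, 10.24, 10.25 and 10.11 in SCP58, and 10.38, 10.31 and 10.40 in SW480/EGFP, and the lowest SCP51 value was on replicate 2.

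Among 16 MTOR and MYC regulators tested, MAX, the partner of MYC on DNA, was higher in SCP51 than in SCP58, at 0.60 ± 0.10 (limma adjusted p = 0.0207; called in 14 of 20 settings, 0.00726 to 0.268). MAF1, a repressor of RNA polymerase III encoded on chromosome 8, was lower, at -0.87 ± 0.19 (0.0400; 10 of 20, 0.0188 to 0.147), and lower than in the parent, at -1.08 ± 0.19 (0.0204; 14 of 20, 0.00838 to 0.0804). Leaving out SCP51 replicate 1 put them at 0.62 for MAX and -0.89 and -1.09 for MAF1. MYC, also on chromosome 8, had 10.87, 11.91 and 11.89 in SCP51, 11.19, 11.07 and 11.11 in SCP58, and 11.65, 11.68 and 11.47 in SW480/EGFP. Its first SCP51 array lay below all others and the other SCP51 arrays above all others. It did not pass with all 9 arrays and passed without that one, at 0.78 ± 0.08 against SCP58 (limma adjusted p = 0.00172; 3 of 20 settings, 0.00172 to 0.613) and, for SCP58 against the parent, at -0.48 ± 0.07 (0.0335; 3 of 20, 0.0335 to 0.9998). LARP1, the TOP-binding protein, was called higher in SCP51 than in SCP58 without that array, at 0.41 ± 0.08 (limma adjusted p = 0.0190, with 0.0181 to 0.306 over 20 settings and a call in 5). LARP4 was called higher there too, at 1.20 ± 0.18 (limma adjusted p = 0.00662), and higher than in the parent, at 0.84 ± 0.18 (0.0338). Of the 16, 1 was called higher and 1 lower against SCP58 with all 9 arrays, where 4.08% of all genes passed in either direction. Without SCP51 replicate 1 these were 4 and 1, where 4.01% and 4.85% of all genes were called higher and lower.

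**Figure D5:**
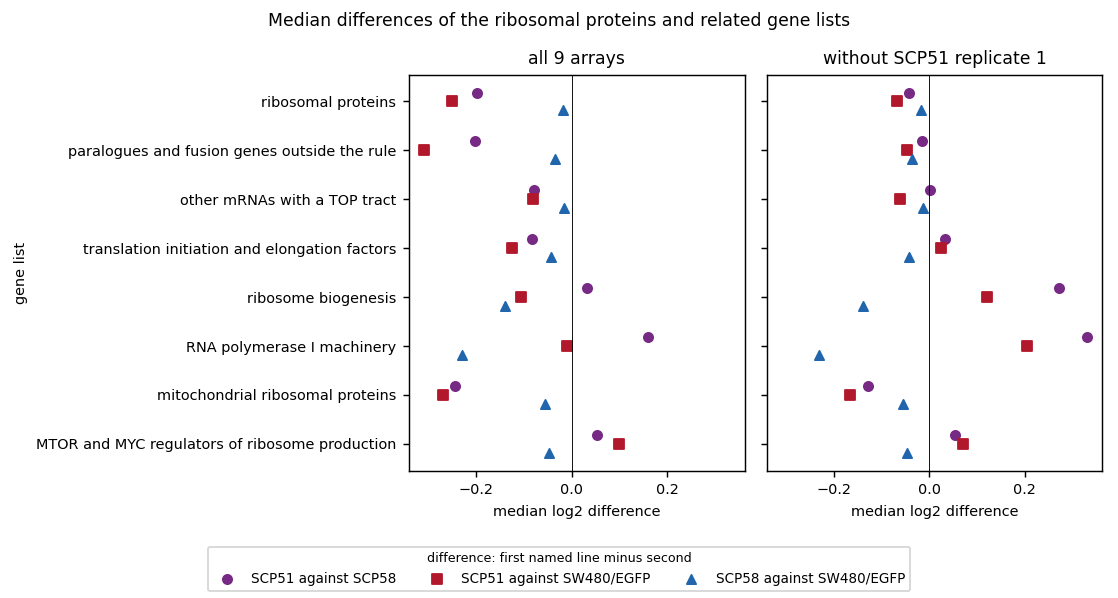
Median log2 difference of the ribosomal protein genes and of each related gene list (rows) in the 3 comparisons, with all 9 arrays on the left and without SCP51 replicate 1 on the right. For SCP58 against SW480/EGFP (triangles) the ribosomal proteins lie at -0.02 and the ribosome biogenesis genes at -0.14.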

How the data were processed

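Biotin-labelled RNA was hybridised to Affymetrix arrays, per the labels' protocols. The authors deposited 1 linear intensity for each probe set, made with GCOS 1.4 (per the submitters' processing notes). Their scaling target and summary method are unknown here, and the number of arrays limits the precision. The log2 of each deposited value was used as it stood, with 514 values under 1 raised to 1, and 62 control probe sets were dropped. Probe sets above their array's median on at least 3 of 9 arrays were kept (29166 probe sets). For genes the probe set with the highest mean was used (13598 genes). The annotation gave 1 symbol to 41091 probe sets, several to 1801 and none to 11721. Entrez identifiers brought symbols up to date from RefSeq's GRCh38.p14 table, in which 99.9% matched.

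limma 3.58.1 (R 4.3.3) was fitted to all 9 arrays with 1 mean for each line and variances moderated along an intensity trend, once over genes and once over all probe sets. Its two-sided p-values were adjusted by Benjamini-Hochberg over everything tested, with a threshold of 0.05, and every adjusted p printed is of this kind. The labels do not say that replicates were separate cultures, so their spread may be technical. The fits were checked on simulated arrays with independent noise of equal spread on every array. The simulation held no deviant array, so it does not cover the effect of SCP51 replicate 1.

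The members, lists and settings were chosen with earlier results of these data known. Named are called genes and probe sets, the highest and lowest differences, chromosome 8 members, members with known roles, and called or bright genes of each list. Some genes this takes are left out, and those described for SCP51 replicate 1, or for a call without it, were chosen after their values were seen. The alternative settings dropped the filter or raised it to the 65th percentile, normalized by quantiles, centred arrays on the 75th percentile, added 32 before log2, removed the trend, weighted the arrays, averaged a gene's probe sets, fitted 6 arrays alone, blocked on replicate number, or left out 1 array.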

Additional observations from a re-analysis of the deposited data

How the results depend on the processing

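In SCP51 against SCP58 no ribosomal protein gene passed in limma with all 9 arrays, 2 passed after quantile normalization, 1 after centring on the 75th percentile and 2 with array weights. Leaving out 1 array gave 0 to 3, with 3 without SCP51 replicate 1 and 1 without SCP51 replicate 3. Leaving out SCP51 replicate 1 together with quantile normalization, a setting added after seeing the data, gave 3. Against SW480/EGFP these counts were 0 with all arrays, 1, 1 and 2, then 0 to 4 (4 without SCP51 replicate 1) and 4. Relative to all genes, the members' median against SCP58 was -0.09, or -0.022 with array weights, -0.17 to 0.0066 leaving out 1 array, with the highest value without SCP51 replicate 1, and -0.0068 in the added setting. Against SW480/EGFP it was -0.15, or -0.040 with weights, -0.22 to -0.021 and -0.015. Called member probe sets against SCP58 numbered 5, or 1 with no filter, 3 with no trend, 12 with weights, 0 with only the 6 arrays compared, 0 with the replicate block, 0 to 11 leaving out 1 array (11 without SCP51 replicate 1, and 2 or fewer without any other) and 9 in the added setting. Against SW480/EGFP they numbered 1, or 0 with no trend, 4 with weights, 0 with only 6 arrays, 0 to 5 (5 without SCP51 replicate 1, 3 without SCP51 replicate 3, 0 without SW480/EGFP replicate 2 or 3) and 4. In SCP58 against SW480/EGFP no gene passed under any setting run, and probe sets numbered 0, or 10 with weights, 0 to 1 and 1. The cause of these moves was not tested. Deviations of same-numbered arrays of different lines correlated at -0.22 to 0.13, with 1 of 9 above 0.1, and those of differently numbered arrays at -0.12 to 0.12. With 3 arrays for each line this cannot show whether replicate numbers pair the arrays. Whether the brightest probe sets had less range left for an increase was not tested.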
